A study of Mus musculus with 12 samples.

Results

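The T cell state transcription factors described here are 9 genes, Foxp3, Ikzf2, Tox, Tcf7, Lef1, Bcl11b, Satb1, Bcl6 and Zbtb7b, taken by symbol from a table of 55401 genes. All 9 were among the 16915 genes that passed the filter on low counts and were tested. They were measured by RNA sequencing of unsorted cells washed from the peritoneal cavity of C57BL/6J mice, in 3 groups of 4 libraries that the submitters call biological replicates. One group carried ID8 (defb29/Vegf-a), a mouse ovarian cancer line, and is called ID8. A second carried the same line made to overexpress FSHR, the receptor of follicle-stimulating hormone, per the series text, and is called ID8-FSHR; its label is ID8 (defb29/Vegf-a) FSHR. The third, labelled endogenous cells, had no injection, so it is no sham-injected control. Tumour cells were given into the peritoneal cavity, and the lavage was done on day 7 with 8 mL of buffered saline. The series text gives 4000000 injected cells and the sample protocol 5000000, and the labels do not reconcile them. The age and sex of the mice, the number of clones behind each line and the level of the receptor protein are not given in the labels, and the ID8-FSHR titles skip numbers, so replicates go by the numbers 1 to 4 that another label gives.

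Transcription factors of this kind set what a T cell is and how far it has gone along its path. Foxp3 and Helios (Ikzf2) mark regulatory T cells, which restrain other lymphocytes. Tox rises with lasting antigen stimulation and is tied to the exhausted state of T cells in tumours, and it also takes part in the development of natural killer cells. TCF-1 (Tcf7) and LEF-1 (Lef1) are related DNA-binding partners of beta-catenin that are high in naive and memory T cells, Satb1 is a chromatin organiser of the same cells, and Bcl11b guards T lineage identity. Bcl6 directs follicular helper T cells and germinal centre B cells, and Zbtb7b, also called ThPOK, commits thymocytes to the CD4 lineage. Several of them are made outside T cells too: Bcl6 and Zbtb7b in myeloid cells, and Tcf7, Tox and Ikzf2 in innate lymphoid cells.

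Promoters are shown for the genes whose levels carry the results below: Foxp3, with the highest rise against uninjected lavage among the 9, Lef1 and Satb1, which spread widely over uninjected libraries, and Bcl11b, the only one that held a searched motif. RefSeq windows of 300 bases (250 before to 50 after a listed start, build GRCm38.p6) matched 7 of the 9 genes, and the first listed start of each was used. The windows are Foxp3 chrX:7579426-7579725 on the plus strand, Lef1 chr3:131110047-131110346 on the plus strand, Satb1 chr17:51833241-51833540 on the minus strand and Bcl11b chr12:108003365-108003664 on the minus strand, each written 5′ to 3′ along its gene.
Foxp3: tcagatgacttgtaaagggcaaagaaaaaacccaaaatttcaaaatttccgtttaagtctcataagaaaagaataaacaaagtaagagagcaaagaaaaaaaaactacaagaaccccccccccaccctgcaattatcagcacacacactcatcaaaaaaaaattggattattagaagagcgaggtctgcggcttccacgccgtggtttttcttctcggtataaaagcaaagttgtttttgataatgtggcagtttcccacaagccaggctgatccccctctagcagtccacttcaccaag
Lef1: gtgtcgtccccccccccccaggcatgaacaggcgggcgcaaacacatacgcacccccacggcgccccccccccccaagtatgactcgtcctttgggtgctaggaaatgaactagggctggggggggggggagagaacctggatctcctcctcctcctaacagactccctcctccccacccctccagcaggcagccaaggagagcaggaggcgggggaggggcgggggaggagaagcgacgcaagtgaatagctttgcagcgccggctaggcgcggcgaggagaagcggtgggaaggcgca
Satb1: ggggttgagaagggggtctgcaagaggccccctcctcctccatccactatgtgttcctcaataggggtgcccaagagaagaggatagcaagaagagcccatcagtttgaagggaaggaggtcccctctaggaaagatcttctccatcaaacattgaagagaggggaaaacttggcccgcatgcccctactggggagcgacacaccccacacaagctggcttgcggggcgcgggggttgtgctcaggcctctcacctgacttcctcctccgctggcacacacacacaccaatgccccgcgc
Bcl11b: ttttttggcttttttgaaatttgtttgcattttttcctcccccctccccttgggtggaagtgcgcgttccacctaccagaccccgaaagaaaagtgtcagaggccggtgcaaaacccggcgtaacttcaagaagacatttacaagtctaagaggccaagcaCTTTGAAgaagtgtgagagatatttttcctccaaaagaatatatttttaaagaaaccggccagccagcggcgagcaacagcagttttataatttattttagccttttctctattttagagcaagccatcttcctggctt
Capitals mark a match to a motif. Searched on both strands were ATCAAAG or TTCAAAG for TCF/LEF factors, TGTGGT or TGCGGT for RUNX, CGGAAG for ETS and TGGAAA for NFAT. The Bcl11b window held TTCAAAG on the minus strand, beginning 89 bases before the start, and the other windows, those of Tcf7, Bcl6 and Zbtb7b included, held none of these letters. The first listed start of Tcf7 lies downstream of an in-frame ATG. Its window therefore holds coding sequence and says nothing on the Tcf7 promoter. Of all 32851 listed promoters of this length, 8.65% held the TCF/LEF letters, 22.4% RUNX, 16.9% ETS and 21.4% NFAT. Guanine and cytosine made up 40.7% of the Foxp3 window and 43% of the Bcl11b window, against 59% for Satb1 and 67.3% for Lef1. A match is a description of the letters only.

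The libraries held 47419608 to 64333677 counts, and 3 counts correspond to 0.0444 to 0.0653 CPM, the reads of a gene scaled to the TMM-adjusted library size, used throughout. In uninjected lavage, macrophage Adgre1 averaged 1574.7 CPM and Cd3e of the T cell receptor complex 11.2 CPM. The tumour libraries are labelled as a cell line, yet they held macrophage, B and T cell RNA beside tumour Wt1, which read 187 to 588 CPM with tumour and 0.283 to 0.740 CPM without. ID8-FSHR replicate 2 stood apart with the lowest Wt1 of the tumour libraries (187 CPM, against 403 to 465 CPM in the other 3 of its group) and the highest Cd3e (17.0 CPM). Uninjected replicate 2 had the most Cd3e, Cd4 and Cd8a of its group and uninjected replicate 1 the least, 4.88 times apart for Cd4. Calls of the 9 genes, and counts of called genes in a list, that change without 1 of these libraries are given beside the result.

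Levels per kilobase of exon, from GENCODE M21 gene models on GRCm38, put the 9 genes in order within uninjected lavage. Length was that of all annotated exons merged, from 2625 bases for Tcf7 to 19027 for Satb1. The order between genes depends on that choice, and other lengths were not tested. Tcf7 (18.8 ± 9.95 CPM per kb, SD, n = 4) and Zbtb7b (16.3 ± 0.978) led, and their ranges of replicates overlapped. Bcl6 followed at 5.40 ± 0.598, then Lef1 (1.72 ± 1.18), Satb1 (1.59 ± 0.949), Bcl11b (1.58 ± 0.802) and Ikzf2 (1.32 ± 0.187), which did not differ from each other beyond their spread. Foxp3 (0.356 ± 0.0587) and Tox (0.231 ± 0.0705) were lowest. The order at the top depended on the group: means per kilobase were 11.5 for Zbtb7b and 8.26 for Tcf7 with ID8, and 11.02 and 15.6 with ID8-FSHR.

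With ID8 tumour, more of these genes were lower than higher against uninjected lavage: Tox, Tcf7, Satb1, Bcl6 and Zbtb7b fell and Ikzf2 rose. With ID8-FSHR, Foxp3, Ikzf2 and Tox rose and Bcl6 and Zbtb7b fell. Between the tumour groups, Foxp3 and Tox were higher with ID8-FSHR. The counts stand on a background of broad change, since 32.7% of all tested genes were called higher and 31.4% lower in ID8 against uninjected, and 33.9% and 30.6% in ID8-FSHR against uninjected, by the edgeR quasi-likelihood test at an adjusted p under 0.05. Only 6.04% were called higher and 5.56% lower in ID8-FSHR against ID8, where 2 of the 9 were higher and 0 lower. For that 0, 1 gene (Bcl6) was lower at an unadjusted p under 0.05, and DESeq2 and limma-voom also called 0.

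**Figure D1:**
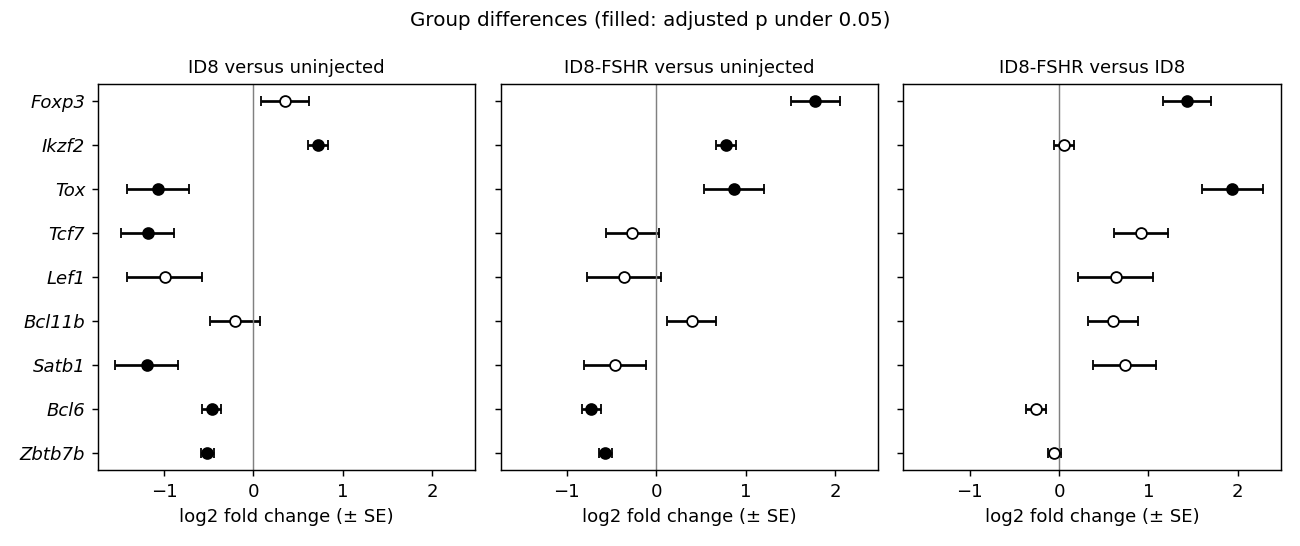
Log2 fold change of each of the 9 genes (x axis, with the SE of the edgeR fit as bars) in the 3 comparisons; filled points passed an adjusted p of 0.05. Foxp3 and Tox are the filled points on the right in ID8-FSHR versus ID8, at 1.43 and 1.94.

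In medians, the 9 log2 fold changes centred on −0.51 in ID8 against uninjected, −0.27 in ID8-FSHR against uninjected and 0.63 in ID8-FSHR against ID8, beside −0.025, 0.001 and −0.006 over all tested genes. Both tumour groups were compared with the same uninjected libraries, so their contrasts share those samples. CPM of the 4 libraries of each group did not overlap for 3 of the 9 genes in ID8 against uninjected, where 62.5% of all genes were so separated, and for 4 of 9 in ID8-FSHR against uninjected, beside 57.0%. In ID8-FSHR against ID8 it was 5 of 9 (Foxp3, Tox, Tcf7, Bcl11b and Satb1, all higher with ID8-FSHR), beside 18.5% of all genes.

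Foxp3, the lineage factor of regulatory T cells (ENSMUSG00000039521.13, chrX:7573644-7595245, plus strand), was low without the FSHR-carrying tumour and rose with it. It stood at 1.42, 1.86, 1.86 and 1.37 CPM in uninjected replicates 1 to 4, at 2.16, 2.36, 1.18 and 2.61 in ID8 replicates 1 to 4, and at 4.52, 7.88, 4.29 and 5.77 in ID8-FSHR replicates 1 to 4. All 4 ID8-FSHR libraries were above all 8 others, with replicate 2 the highest, while the uninjected and ID8 libraries overlapped. Means were 1.63 ± 0.269, 2.08 ± 0.628 and 5.61 ± 1.64 CPM (SD, n = 4 each), resting on 59 to 396 reads per library. The log2 fold change was 1.78 ± 0.27 (SE) in ID8-FSHR against uninjected (edgeR adjusted p = 7.87e-05) and 1.43 ± 0.27 against ID8 (edgeR adjusted p = 0.00466). In ID8 against uninjected it was 0.35 ± 0.27 and did not pass (edgeR adjusted p = 0.273). Without ID8-FSHR replicate 2 these called values were 1.68 and 1.24, still called. In lavage cells measured in bulk, more cells of a type and more RNA per cell cannot be told apart. CPM is also a share of each library, so tumour RNA can lower the share of other cells. Summed tumour and mesothelial markers averaged 23.7 CPM in uninjected, 7683.3 in ID8 and 3994.4 in ID8-FSHR lavage. The part of this dilution in the T cell gene differences, here and below, was not tested.

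Reads on Foxp3 can overlap other genes, and no source used here gives the strand setting of the counting. Of its 4577 exonic bases, 31.5% lie in exons of another gene. Flicr, a non-coding RNA on the same strand, shares 18.6% of them, and Ccdc22 on the opposite strand shares 12.9%. Ccdc22 averaged 2.69, 1.99 and 2.53 CPM in uninjected, ID8 and ID8-FSHR libraries and was not called in any comparison. Flicr averaged 0.150, 0.0685 and 0.329 CPM, and was higher in ID8-FSHR than in ID8 (log2 fold change 2.197, edgeR adjusted p = 0.0113). The ID8 mean lies just above the 0.0444 to 0.0653 CPM that 3 counts correspond to, so this fold change rests on few reads. These overlapping genes were chosen from the annotation after the Foxp3 values were seen.

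Ikzf2, which encodes Helios (ENSMUSG00000025997.13, chr1:69531214-69687245, minus strand), rose with either tumour. It read 12.5, 17.7, 15.3 and 16.1 CPM in uninjected replicates 1 to 4, 23.3, 23.7, 28.8 and 25.7 in ID8 and 28.3, 28.2, 23.1 and 26.0 in ID8-FSHR. Every tumour library was above every uninjected one, and the tumour groups overlapped. The log2 fold change was 0.72 ± 0.11 in ID8 (edgeR adjusted p = 1.01e-04) and 0.78 ± 0.11 in ID8-FSHR (edgeR adjusted p = 5.27e-05) against uninjected, and 0.06 ± 0.11 between the tumour groups (edgeR adjusted p = 0.776). In ID8 against uninjected, Foxp3 was not called and Cd3e fell (log2 fold change −0.943, edgeR adjusted p = 0.0101). The part of cells other than T cells in the Ikzf2 values was not tested.

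Other regulatory T cell genes were called in both directions, as were tested genes at large. Of all tested genes, 32.7% were higher and 31.4% lower in ID8 against uninjected, and 33.9% and 30.6% in ID8-FSHR. Between the tumour groups the shares were only 6.04% and 5.56%. Of 12 (receptors, costimulators and cytokines such as Il2ra, Ctla4, Icos and Il10), 1 was higher and 5 lower in ID8 against uninjected, with a median log2 fold change of −0.57, and 3 were higher and 2 lower in ID8-FSHR, with a median of 0.35. Between the tumour groups 2 were higher with ID8-FSHR (median 0.96) and 0 lower, also at an unadjusted p under 0.05 and by DESeq2 and limma-voom. These counts were unsteady. The 2 higher became 6 without ID8-FSHR replicate 1, 1 without ID8-FSHR replicate 2, and 0 without ID8 replicate 3, ID8 replicate 4 or ID8-FSHR replicate 4 or with only the 2 groups fitted. The 5 lower in ID8 became 3 without ID8 replicate 3 or 4 or uninjected replicate 2, and the 1 higher there was lost without any 1 of 7 libraries (ID8 replicates 1 and 2, ID8-FSHR replicate 4 and each uninjected one). The 2 lower in ID8-FSHR became 1 without ID8-FSHR replicate 3 or uninjected replicate 3 or 4. The inhibitory receptor Ctla4 averaged 3.91 ± 0.777 CPM in uninjected, 0.508 ± 0.275 in ID8 and 1.83 ± 0.999 in ID8-FSHR lavage. It fell in ID8 (log2 fold change −2.93, edgeR adjusted p = 9.30e-05) and in ID8-FSHR (−1.10, edgeR adjusted p = 0.0345) against uninjected, and was higher in ID8-FSHR than in ID8 (1.83, edgeR adjusted p = 0.0210). Tnfrsf9, a costimulatory receptor also called 4-1BB, was 5.84 ± 3.46 CPM in ID8-FSHR against 1.04 ± 0.208 in uninjected and 1.33 ± 0.723 in ID8, and was called higher against both. Tnfrsf18, also called GITR, fell in both tumour groups against uninjected, to 2.40 ± 0.433 and 3.86 ± 1.64 CPM from 7.33 ± 0.992. The summed level of the 12 genes ran from 26.9 to 39.4 CPM in uninjected, 12.4 to 21.3 in ID8 and 22.8 to 55.3 in ID8-FSHR libraries.

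Tox, the factor tied to T cell exhaustion (ENSMUSG00000041272.11, chr4:6686353-6991557, minus strand), was lowest with ID8 and highest with ID8-FSHR. It measured 1.14, 2.18, 2.24 and 1.48 CPM in uninjected replicates 1 to 4, 0.947, 0.564, 0.637 and 1.19 in ID8 and 1.87, 4.61, 2.68 and 3.74 in ID8-FSHR. ID8-FSHR did not overlap ID8, and uninjected overlapped both. Tox fell in ID8 by 1.07 ± 0.35 on the log2 scale (edgeR adjusted p = 0.0155), rose in ID8-FSHR by 0.87 ± 0.33 (edgeR adjusted p = 0.0354), and differed between the tumour groups by 1.94 ± 0.35 (edgeR adjusted p = 0.00348). As few as 28 reads lay behind a library. The rise in ID8-FSHR against uninjected was lost without any 1 of 4 libraries: 0.75 without ID8-FSHR replicate 2 (edgeR adjusted p = 0.0640), 0.80 without ID8-FSHR replicate 4 (edgeR adjusted p = 0.0814), 0.71 without uninjected replicate 1 (edgeR adjusted p = 0.0965) and 0.80 without uninjected replicate 4 (edgeR adjusted p = 0.0829). The difference from ID8 was called without each library in turn.

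Exhaustion and activation genes were likewise called in both directions, as were tested genes at large. Of 12, 3 were higher and 3 lower in ID8 against uninjected (median log2 fold change 0.54), 6 higher and 2 lower in ID8-FSHR (median 0.77), and 3 higher and 1 lower between the tumour groups (median 0.75). The shares of all tested genes were 32.7% and 31.4%, 33.9% and 30.6%, and only 6.04% and 5.56%, in the same order. The 3 higher between the tumour groups became 8 without ID8-FSHR replicate 1, and 1 without ID8 replicate 1, 3 or 4, ID8-FSHR replicate 2 or 4 or uninjected replicate 3, or by limma-voom. The 1 lower, Cxcl13, became 2 without ID8-FSHR replicate 1 and 0 without each other library except ID8 replicate 3 and uninjected replicate 2. Tigit, an inhibitory receptor of T and natural killer cells, averaged 0.670 ± 0.471, 0.862 ± 0.373 and 3.34 ± 1.98 CPM in uninjected, ID8 and ID8-FSHR lavage and was higher in ID8-FSHR than in ID8 (log2 fold change 1.95, edgeR adjusted p = 0.0388). Nr4a3, a nuclear receptor induced by antigen receptor signals, rose from 1.77 ± 0.422 CPM to 3.44 ± 0.781 and 9.68 ± 3.17, called in all 3 comparisons. Tox2, a relative of Tox, fell in both tumour groups, from 58.3 ± 9.58 CPM to 15.0 ± 3.98 and 10.4 ± 3.03. The receptors Pdcd1, Havcr2, Lag3 and Tigit were higher in ID8-FSHR against uninjected (log2 fold changes 2.295, 1.836, 1.542 and 2.304). The genes called lower in a comparison were abundant in uninjected lavage beside Cd3e at 11.2 CPM. Entpd1, Cd244a, Tox2 and Cxcl13 averaged 140.5, 60.3, 58.3 and 588 CPM there. The part of cells other than T cells in this list was not tested. Natural killer and innate lymphoid markers moved with Tox between the tumour groups: 10 of 13 were higher in ID8-FSHR than in ID8, beside 6.04% of all tested genes. That count was 4 without ID8 replicate 4, and 5 without ID8 replicate 3 or ID8-FSHR replicate 2 or 4. The summed level of these markers ran from 116 to 134 CPM in uninjected, 78.6 to 112 in ID8 and 92.8 to 298 in ID8-FSHR. The killer cell receptor Ncr1 read 2.83, 17.4, 9.31 and 20.6 CPM in ID8-FSHR replicates 1 to 4, and replicate 1 was the lowest of its group for Tox too. The other groups showed no such match. In ID8, Ncr1 was highest in replicate 1 (4.77 CPM) and Tox in replicate 4 (1.19 CPM). In uninjected lavage, Ncr1 was lowest in replicate 2 (1.81 CPM) and Tox in replicate 1 (1.14 CPM). The part of natural killer and innate lymphoid cells in the Tox values was not tested.

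**Figure D2:**
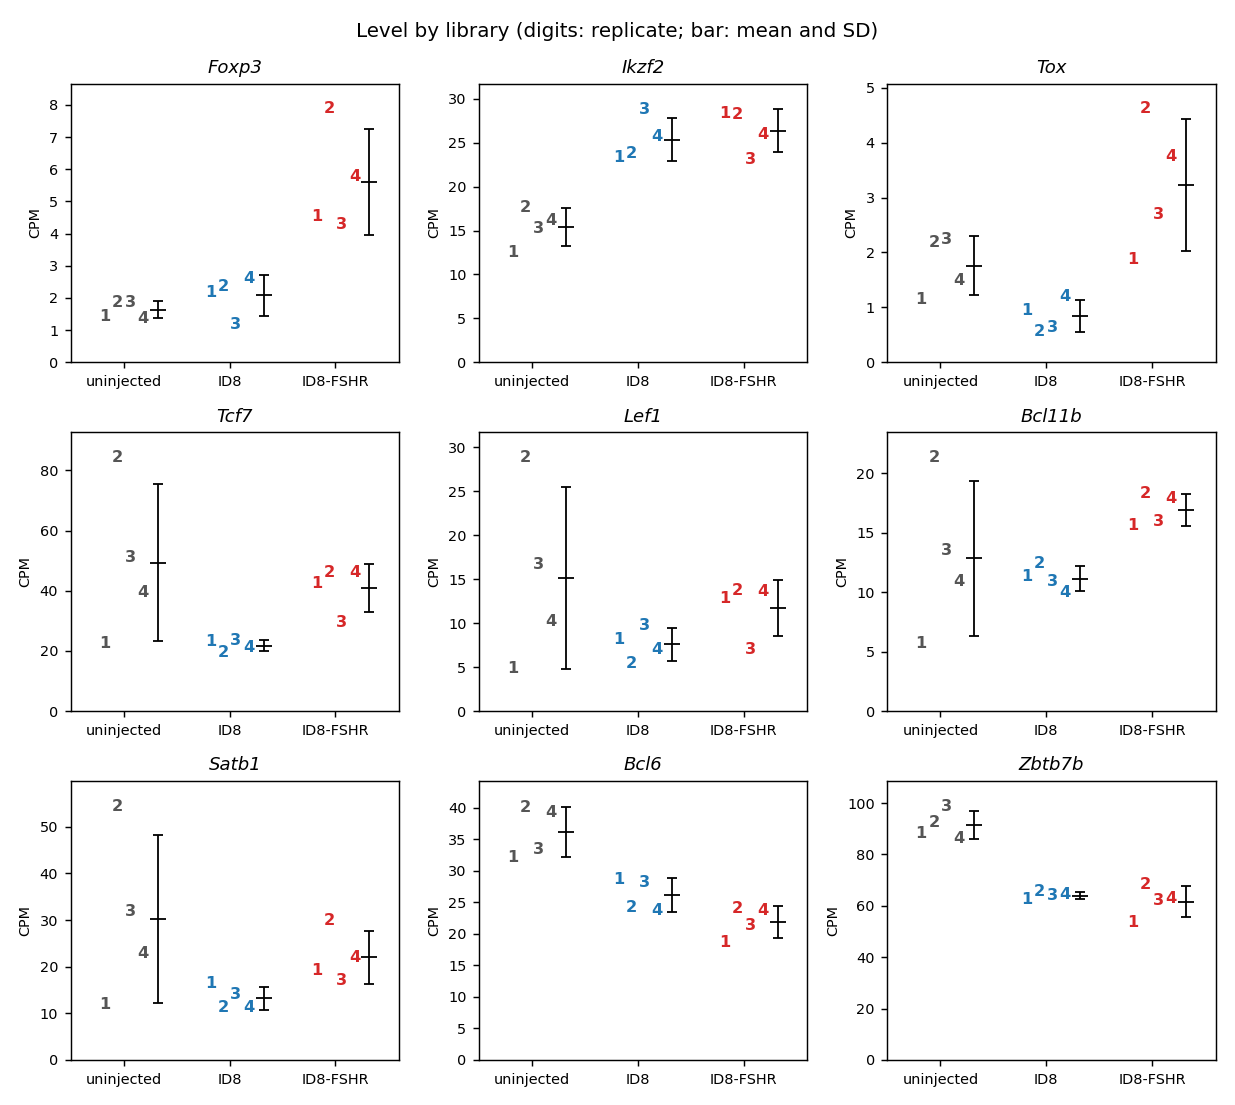
Level of each of the 9 genes in CPM (y axis, from 0) in the 12 libraries; digits are replicate numbers, and the bar beside each group is the mean and SD of its 4 libraries. Foxp3 is 4.29 to 7.88 with ID8-FSHR and at most 2.61 elsewhere, and uninjected replicates 1 and 2 are the lowest and highest of their group for Tcf7, Lef1, Bcl11b and Satb1.

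Tcf7, Lef1 and Satb1, factors of naive and memory T cells, shared 1 pattern: widely spread in uninjected lavage, less spread and with lower means in ID8, and with means in between in ID8-FSHR. Tcf7 (ENSMUSG00000000782.16, chr11:52252371-52283014, minus strand) read 22.3, 84.2, 51.1 and 39.5 CPM in uninjected replicates 1 to 4, 23.0, 19.4, 23.4 and 21 in ID8, and 42.3, 45.9, 29.3 and 46.0 in ID8-FSHR. Lef1 (ENSMUSG00000027985.14, chr3:131110471-131224356, plus strand) read 4.83, 28.8, 16.7 and 10.2 CPM, then 8.18, 5.40, 9.78 and 7.02, then 12.8, 13.7, 7.03 and 13.6, in the same order. Satb1 (ENSMUSG00000023927.15, chr17:51736187-51833290, minus strand) read 11.8, 54.3, 31.9 and 22.8 CPM, then 16.4, 11.3, 14.0 and 11.2, then 19.1, 29.9, 17.0 and 22.1. Uninjected replicate 2 was the highest and replicate 1 the lowest for all 3 genes, 3.78 times apart for Tcf7, 5.96 times for Lef1 and 4.60 times for Satb1. The uninjected libraries therefore overlapped both tumour groups for each of the 3.

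Against uninjected lavage, Tcf7 fell in ID8 by 1.18 ± 0.30 on the log2 scale (edgeR adjusted p = 0.00383) and Satb1 fell by 1.19 ± 0.36 (edgeR adjusted p = 0.00995). Lef1 had a log2 fold change of −0.99 ± 0.42 and missed the threshold (edgeR adjusted p = 0.0542), passing without uninjected replicate 1 (−1.29, edgeR adjusted p = 0.00591) and without uninjected replicate 4 (−1.14, edgeR adjusted p = 0.0431). Without uninjected replicate 2 the Satb1 value was −0.75 (edgeR adjusted p = 0.0416) and the Tcf7 value −0.79 (edgeR adjusted p = 0.0109). None of the 3 passed in ID8-FSHR against uninjected, where Tcf7 had −0.27 ± 0.30, Lef1 −0.36 ± 0.42 and Satb1 −0.46 ± 0.35 (edgeR adjusted p = 0.442, 0.463 and 0.266). Without uninjected replicate 2 Tcf7 was 0.12, Lef1 0.16 and Satb1 −0.011 there, and without uninjected replicate 1 Satb1 passed at −0.72 (edgeR adjusted p = 0.0387). Between the tumour groups the log2 values were 0.92 ± 0.30, 0.63 ± 0.42 and 0.74 ± 0.35 (edgeR adjusted p = 0.0663, 0.346 and 0.191), and Tcf7 passed without uninjected replicate 1 (edgeR adjusted p = 0.0218) or 2 (edgeR adjusted p = 0.0223). With only the 2 tumour groups fitted, Tcf7 passed as well, and so did Satb1 (edgeR adjusted p = 0.0477). For Lef1, 13.7% of the exonic bases lie under an opposite-strand predicted gene.

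Most listed genes of naive and central memory T cells were lower with both tumours. Of 10 (among them the homing receptor Ccr7, and Il7r, Klf2 and S1pr1), 7 were lower and 1 higher in ID8 against uninjected, and the same genes were called the same way in ID8-FSHR, with medians of −1.41 and −0.97. Of all tested genes, 31.4% were lower and 32.7% higher in ID8, and 30.6% and 33.9% in ID8-FSHR. Between the tumour groups the shares were 5.56% and 6.04%. S1pr1, the receptor for tissue exit that B cells and other cells also carry, averaged 321.5 ± 14.3 CPM in uninjected, 65.5 ± 8.78 in ID8 and 57.7 ± 13.6 in ID8-FSHR lavage. B cell markers fell beside them, 13 of 13 in each tumour group, from a summed 3226.5 to 4254.3 CPM in uninjected to 425 to 619 in ID8 and 367 to 659 in ID8-FSHR; their part in the naive T cell list was not tested. Among 9 tested targets of TCF/LEF and beta-catenin, of 10 listed, 6 were higher and 3 lower in ID8, and 5 higher and 3 lower in ID8-FSHR, with 0 called between the tumour groups (1 lower at an unadjusted p under 0.05 and 1 without uninjected replicate 2, 0 by DESeq2 and limma-voom). Rnf43, a brake on Wnt receptors, rose from 3.66 ± 0.601 CPM to 53.5 ± 7.47 in ID8 and 50.6 ± 18.7 in ID8-FSHR, and Apcdd1, a Wnt inhibitor, fell from 10.4 ± 1.90 to 3.24 ± 0.371 and 3.20 ± 1.11. Tumour and mesothelial markers rose with them, from a summed 22.1 to 25.2 CPM in uninjected to 6591.2 to 8372.9 in ID8 and 1882.3 to 5517.4 in ID8-FSHR, and their part in these targets was not tested.

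Bcl11b, the guardian of T lineage identity (ENSMUSG00000048251.15, chr12:107910403-108003602, minus strand), shared the wide uninjected spread without a called change in the fit of all 12 libraries. It read 5.68, 21.3, 13.5 and 10.9 CPM in uninjected replicates 1 to 4, 11.3, 12.4, 10.9 and 9.92 in ID8 and 15.6, 18.3, 15.9 and 17.8 in ID8-FSHR. All 4 ID8-FSHR libraries were above all 4 ID8 ones, yet the log2 fold change of 0.60 ± 0.28 did not pass (edgeR adjusted p = 0.175). That fit shares its estimate of the spread with the uninjected group. The SD was 50.7% of the mean in uninjected, 9.2% in ID8 and 8.0% in ID8-FSHR. With only the 2 tumour groups fitted, Bcl11b passed (edgeR adjusted p = 0.00785). Against uninjected it was −0.21 ± 0.28 in ID8 (edgeR adjusted p = 0.532) and 0.40 ± 0.28 in ID8-FSHR (edgeR adjusted p = 0.228). Without uninjected replicate 2 the first became 0.15, and the second 0.76 with a call (edgeR adjusted p = 0.0123).

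Bcl6 and Zbtb7b, the factors of helper T cell fates, fell with both tumours and were tight within groups. Bcl6 (ENSMUSG00000022508.5, chr16:23965052-23988852, minus strand) read 32.2, 40.0, 33.3 and 39.2 CPM in uninjected replicates 1 to 4, 28.7, 24.2, 28.2 and 23.6 in ID8 and 18.6, 24.0, 21.3 and 23.8 in ID8-FSHR. Zbtb7b (ENSMUSG00000028042.15, chr3:89377644-89394776, minus strand) read 88.0, 92.5, 98.6 and 86.4 CPM, then 62.4, 65.4, 63.96 and 64.3, then 53.7, 68.2, 61.9 and 62.7, in the same order. For both genes every uninjected library was above every tumour library, while the tumour groups overlapped. Bcl6 fell by 0.47 ± 0.11 on the log2 scale in ID8 (edgeR adjusted p = 0.00203) and by 0.73 ± 0.11 in ID8-FSHR (edgeR adjusted p = 6.77e-05), and the tumour groups differed by −0.26 ± 0.11, which did not pass (edgeR adjusted p = 0.141). Zbtb7b fell by 0.51 ± 0.07 in ID8 (edgeR adjusted p = 4.36e-05) and by 0.57 ± 0.07 in ID8-FSHR (edgeR adjusted p = 1.78e-05), with −0.06 ± 0.07 between them (edgeR adjusted p = 0.656). B cell and most macrophage markers moved with both genes. Of all tested genes, 31.4% were lower and 32.7% higher in ID8 against uninjected, and 30.6% and 33.9% in ID8-FSHR. Of 12 macrophage markers, 10 were lower and Gata6 higher in ID8 (2 higher without ID8 replicate 3 or ID8-FSHR replicate 1 or 4), and 8 were lower and Gata6 and Marco higher in ID8-FSHR. Their sum went from 23916.2 to 30235.8 CPM in uninjected to 10849.4 to 13169.1 and 8433.4 to 11049, most of it Lyz2, which averaged 20378.1, 7840.5 and 5047.9 CPM, and their part in the fall of Bcl6 and Zbtb7b was not tested.

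Genes of the T cell receptor complex and of its signalling and coreceptors were mostly lower with ID8 than without tumour. Among all tested genes, 31.4% were lower and 32.7% higher in ID8 against uninjected, and 30.6% and 33.9% in ID8-FSHR. Between the tumour groups 5.56% were lower and 6.04% higher with ID8-FSHR. Of 18 (Cd3d, Cd3e, Cd3g, Trac, Lck and others, some of them also made by other lymphocytes), 17 were lower in ID8 than in uninjected lavage (12 without uninjected replicate 2), with a median log2 fold change of −1.16. In ID8-FSHR against uninjected Cd2, Cd5 and Ubash3a were lower, 0 were higher (also 0 at an unadjusted p under 0.05, by DESeq2 and by limma-voom, but 1 without uninjected replicate 2) and the median was 0.03. Against ID8, 12 were higher in ID8-FSHR (4 without ID8 replicate 4 or ID8-FSHR replicate 2, and 5 without ID8 replicate 2 or 3 or ID8-FSHR replicate 4), with a median of 1.115. Cd4 and Cd8a, the coreceptors of helper and killer T cells, averaged 16.5 ± 9.18 and 8.28 ± 4.50 CPM in uninjected, 6.63 ± 0.541 and 4.02 ± 0.634 in ID8, and 14.9 ± 6.23 and 7.84 ± 3.03 in ID8-FSHR. The 3 coreceptor genes (with Cd8b1) were lower in ID8 than in uninjected lavage (1 without uninjected replicate 2), and 0 were called between the tumour groups, where 3 were higher at an unadjusted p under 0.05, 3 by DESeq2 and 0 by limma-voom, and where 2 were called without ID8-FSHR replicate 3 and 1 without uninjected replicate 1.

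**Figure D3:**
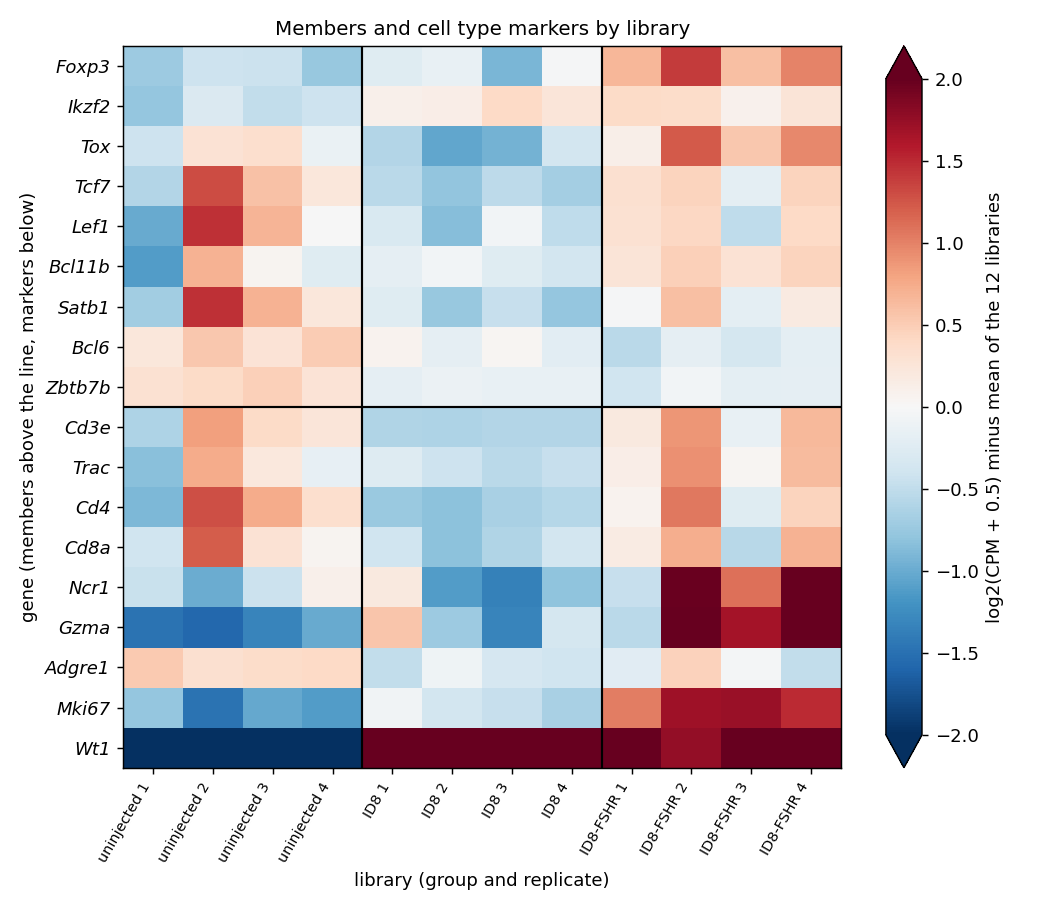
Level of the 9 genes (above the line) and of cell type markers (below it) in each of the 12 libraries, as log2(CPM + 0.5) minus the gene's mean over the libraries; red is higher, blue lower, and values past 2 in either direction share the end colours. Uninjected replicate 2 is the reddest column of its group for Tcf7, Lef1, Satb1 and Cd4, and Foxp3 and Mki67 are red in all 4 ID8-FSHR libraries.

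Per read of the T cell receptor complex, Foxp3 was called higher in both tumour groups than in uninjected lavage, in ID8 close to the shift of all genes on that scale. As a scale chosen after seeing the data, each count was divided by the summed reads of Cd3d, Cd3e and Cd3g, which ran from 18.2 to 45.7 CPM in uninjected, 15.0 to 15.2 in ID8 and 20.4 to 45.5 in ID8-FSHR libraries. This scale moves the median log2 fold change of all tested genes to 0.911 in ID8 against uninjected, −0.015 in ID8-FSHR against uninjected and −0.951 in ID8-FSHR against ID8. The edgeR test then called 49.3% of all genes higher and 3.75% lower in the first comparison, 19.7% and 11.7% in the second, and 0.479% and 57.4% in the third. Foxp3 had 77.8, 40.8, 48.8 and 49.5 reads per 1000 CD3 reads in uninjected replicates 1 to 4, 144, 155, 77.2 and 174 in ID8 and 190, 173, 210 and 143 in ID8-FSHR. ID8-FSHR lay above uninjected in every library and overlapped ID8, and one ID8 library, replicate 3, lay within the uninjected range. The log2 fold change per CD3 read was 1.35 ± 0.47 in ID8 against uninjected (edgeR adjusted p = 0.00985) and 1.73 ± 0.47 in ID8-FSHR against uninjected (edgeR adjusted p = 0.00117), both called without each library in turn. These were 0.44 and 1.74 above the median of all genes. Between the tumour groups it was 0.38 ± 0.46 and did not pass (edgeR adjusted p = 0.447), and was 1.33 above that median.

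Tcf7, Lef1, Satb1 and Tox passed in no comparison per CD3 read, also with each library left out. Tcf7 had 1222 to 1843 reads per 1000 CD3 reads in uninjected, 1276 to 1538 in ID8 and 1010 to 1776 in ID8-FSHR libraries, and its log2 fold changes of −0.02, −0.12 and −0.10 carried an SE of 0.37 each. Differences within that error were not detectable at this spread. Tox had 47.6 to 62.7 reads per 1000 in uninjected, 37.1 to 79.5 in ID8 and 78.3 to 132 in ID8-FSHR libraries, with ID8-FSHR above uninjected in every library and a log2 fold change of 0.86 ± 0.50 (edgeR adjusted p = 0.194). Between the tumour groups Tox had 0.86 ± 0.50 and did not pass (edgeR adjusted p = 0.115). Relative to the median of all genes, Tox stood at −0.913 in ID8 and 0.874 in ID8-FSHR against uninjected, and at 1.812 between the tumour groups. Tcf7 stood at −0.933, −0.106 and 0.852. Ikzf2 (1.71 ± 0.38) and Bcl11b (0.95 ± 0.39) were called higher in ID8 against uninjected, the second close to the median of all genes, and Bcl11b lost its call without any 1 of the 4 ID8 libraries or uninjected replicate 3 or 4. Ikzf2, Bcl6 and Zbtb7b were called lower in ID8-FSHR against ID8 at −0.91, −1.24 and −1.02, near the median of all genes on this scale. Ikzf2 lost that call without any 1 ID8 library or ID8-FSHR replicate 2 or 4, Bcl6 without ID8-FSHR replicate 4, and Zbtb7b without ID8 replicate 4 or ID8-FSHR replicate 2 or 4. For none of the 9 in ID8 against uninjected was a fall called, and 0 were lower at an unadjusted p under 0.05. In ID8-FSHR against uninjected 0 were called lower as well, with 1 at an unadjusted p under 0.05, and 0 were higher in ID8-FSHR against ID8, also unadjusted. Calls gained with 1 library left out were Bcl6 lower in ID8-FSHR against uninjected without ID8-FSHR replicate 3 (−0.96, edgeR adjusted p = 0.0436), Ikzf2 higher there without ID8-FSHR replicate 2 (0.94, edgeR adjusted p = 0.0358) or uninjected replicate 1 (0.97, edgeR adjusted p = 0.0198), and Zbtb7b higher in ID8 without uninjected replicate 1 (0.72, edgeR adjusted p = 0.0474).

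**Figure D4:**
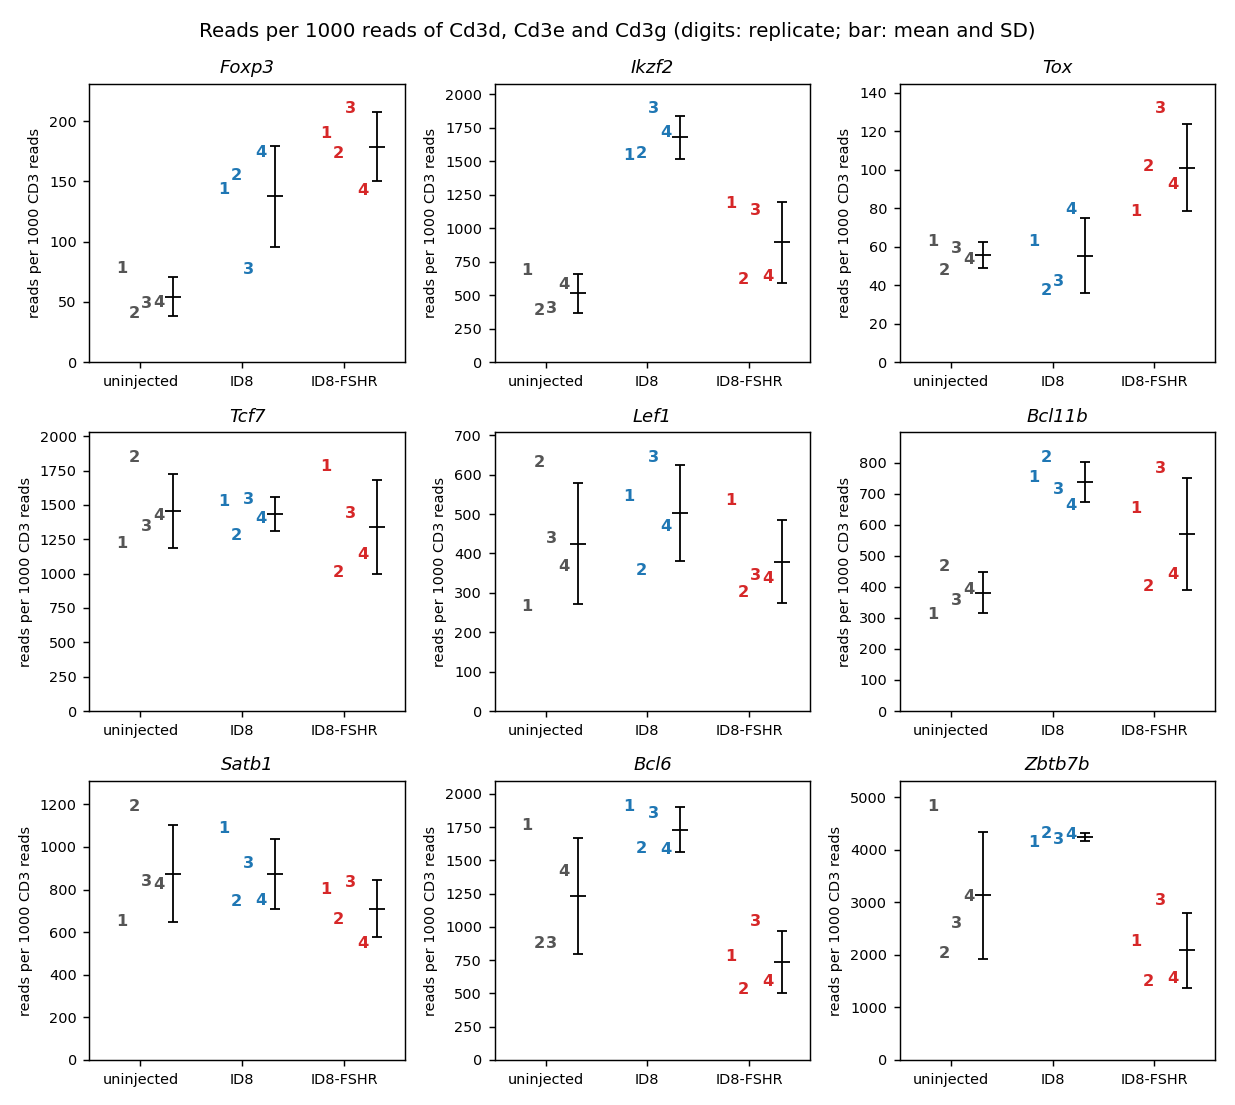
Reads of each of the 9 genes per 1000 reads of Cd3d, Cd3e and Cd3g (y axis, from 0) in the 12 libraries; digits are replicate numbers, and the bar beside each group is the mean and SD of its 4 libraries. Foxp3 is 40.8 to 77.8 in uninjected and 143 to 210 with ID8-FSHR, while Tcf7 overlaps in all 3 groups.

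Over the 12 libraries, the genes most like each factor differed in kind. Likeness was the root mean square difference between profiles of log2(CPM + 0.5), each centred on its own mean, and is a description over libraries that share a study and their group structure. Among the 3 nearest to Tcf7 were Kcna2 (0.17) and Satb1 (0.18), among the 3 nearest to Satb1 were Tcf7 (0.18) and Camk4 (0.18), and nearest to Lef1 were Kcna2 (0.21), Tcf7 (0.23) and Satb1 (0.24). Bcl11b was nearest to Izumo1r (0.19), Trac (0.23) and Armcx4 (0.29), and Tox to Il18rap (0.23), Prkcq (0.25) and Cd96 (0.27). Foxp3 was nearest to Wdhd1 (0.18), Lmnb1 and Tedc1 (0.23 each). Ikzf2 was nearest to Ndufb4, Hmgcs1 and Tarsl2 (0.13 each), Bcl6 to Zc3h10, Dop1a (0.11 each) and Ctdp1 (0.12), and Zbtb7b to Baz2a (0.05), Trappc8 and Chd8 (0.06 each). Among the 9 factors themselves, Bcl6 and Zbtb7b were the closest pair (0.16), then Tcf7 and Satb1 (0.18), and Foxp3 and Bcl6 were the farthest apart (0.97). All 10 listed genes of dividing cells were called higher in each of the 3 comparisons, as Foxp3 was in the 2 with ID8-FSHR but not in ID8 against uninjected. Of all tested genes, 32.7% were higher in ID8 and 33.9% in ID8-FSHR against uninjected, and 6.04% in ID8-FSHR against ID8. The 10 genes went from a summed 168 to 255 CPM in uninjected to 433 to 624 in ID8 and 1336.7 to 1833 in ID8-FSHR, and their part in the Foxp3 values was not tested.

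Other T cell factors and family relatives of the 9 were called in both directions, as were tested genes at large. The shares of all tested genes were 32.7% higher and 31.4% lower in ID8 against uninjected, and 33.9% and 30.6% in ID8-FSHR. Between the tumour groups they were only 6.04% and 5.56%. Of 18 other transcription factors of T cell fate, 5 were higher and 10 lower in ID8 against uninjected (median log2 fold change −0.92), 4 higher and 8 lower in ID8-FSHR (median −0.41), and 4 higher and 2 lower between the tumour groups (median 0.26). The 4 became 2 without ID8 replicate 3 or 4, and the 2 became 1 without ID8 replicate 1, 3 or 4 or ID8-FSHR replicate 3 or 4. Eomes, a factor of killer T cells and natural killer cells, averaged 3.10 ± 0.687 CPM in uninjected, 2.80 ± 0.801 in ID8 and 11.4 ± 6.54 in ID8-FSHR and was higher in ID8-FSHR than in ID8 (log2 fold change 2.02, edgeR adjusted p = 0.00687). Tbx21, which directs type 1 helper cells, Batf and Stat4 were also higher in that comparison, and Runx1 and Maf were lower. Of 17 family relatives of the 9, 15 were tested, and 5 were higher and 8 lower in ID8 and 5 higher and 7 lower in ID8-FSHR against uninjected, with 0 called between the tumour groups (3 higher and 4 lower at an unadjusted p under 0.05, 1 and 1 by DESeq2, 0 by limma-voom, 3 and 1 without ID8-FSHR replicate 1, 1 and 0 without ID8-FSHR replicate 2). The direction could differ within a family. Bcl11a, a B cell and progenitor factor, fell from 103.6 ± 11.5 CPM to 13.8 ± 2.16 and 15.7 ± 3.56 while Bcl11b had no call. Tcf7l2, a relative of Tcf7, rose from 20.2 ± 2.06 CPM to 45.7 ± 1.84 and 46.0 ± 3.56, and Ikzf3, the B lymphocyte relative of Ikzf2, fell from 290 ± 37.1 to 40.5 ± 6.31 and 55.3 ± 12.8.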

How the data were processed

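Whole-number counts per gene were deposited by the authors for 12 libraries, 1 column each, and show no normalization. Per the labels, RNA came from a Qiagen miRNeasy Micro kit and libraries from a KAPA HyperPrep kit with ribosomal RNA removed. GRCm38.p6, STAR 2.7.9a, bcl2fastq 2.20 and featureCounts (Subread 1.6.4) are named, per the submitters' processing notes. How strand and multi-mapping reads were handled, and which annotation was used, is not stated in those notes or the labels. The 9 genes and the gene lists were chosen with earlier results of these data known.

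The counts of all 12 libraries went into 1 edgeR 4.0.16 quasi-likelihood fit in R 4.3.3 (robust, group only, TMM scaling, default filter on low counts), with Benjamini-Hochberg adjustment over 16915 genes. "Higher", "lower", "rose" and "fell" mean an adjusted p under 0.05. SE is the absolute log2 fold change divided by the square root of F. CPM used the TMM-scaled library size. The script was tested on simulated data. No pair of libraries agreed within sampling noise. The labels call replicates biological without naming the animals, so whether each library is a separate animal is not stated. The p-values test group differences against the spread between these libraries. Named were the 9 genes and, of each other list, up to 4 genes per comparison by smallest adjusted p. All genes of a count of 5 or fewer were named too. So were defining markers (Cd3e, Cd4, Cd8a, Adgre1, Wt1) and the 3 most alike genes of each factor. Ncr1, Pdcd1, Lag3 and genes overlapping Foxp3 were chosen after their values were seen. Some genes under this rule are not reported here. Of the 17 other lists, those of dendritic cells, neutrophils, mast cells and B-1 cells are summarised in the closing section. Gene models came from GENCODE M21, matched by identifier without version. Alternatives were DESeq2 1.42.0, limma-voom (limma 3.58.1), other scalings and filters, only the groups compared, a replicate block and each library left out.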

Additional observations from a re-analysis of the deposited data

Results flagged for a closer look

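Lef1 in ID8-FSHR replicate 3, at 7.03 CPM, lay far below the 12.8 to 13.7 CPM of the other 3 libraries of its group. By chance alone about 1 in 20 sets of 4 libraries passes the cutoff for such a gap. As 27 sets were tested, 1 such set can arise by chance. ID8-FSHR replicate 3 was also the lowest of its group for Tcf7, Cd3e, Cd4 and Cd8a. Foxp3 and Tox differed between the tumour groups, by 1.43 and 1.94 on the log2 scale (edgeR adjusted p = 0.00466 and 0.00348, n = 4 per group). Since both tumour groups were set against the same uninjected libraries, this difference is also the test of whether their changes against uninjected lavage differ. All 4 ID8-FSHR libraries were above all 4 ID8 libraries for both genes.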

How the results depend on the processing

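Each log2 fold change of the 9 genes was refitted under 20 alternatives, 540 values in all. Of these, 520 kept their direction and their side of the threshold, 5 lost a call (all Tox in ID8-FSHR against uninjected), 11 gained one and 4 changed sign without being called: without uninjected replicate 2, Bcl11b in ID8 (0.15), and Tcf7 (0.12) and Lef1 (0.16) in ID8-FSHR, each against uninjected, and without ID8-FSHR replicate 1, Zbtb7b between the tumour groups (0.007). With each library left out in turn these values ran from −0.453 to 0.151, −0.510 to 0.122, −0.655 to 0.160 and −0.091 to 0.007. Fitting only the 2 groups compared raised the number of factors higher in ID8-FSHR than in ID8 from 2 to 5, adding Tcf7, Bcl11b and Satb1; the cause was not tested. Every other count of factors called stayed within 1.5 times. DESeq2 added Lef1 to those lower in ID8 (6) and Tcf7 to those higher in ID8-FSHR than in ID8 (3).

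Labels give the groups the same replicate numbers but name no shared litter or day. Deviations of same-numbered libraries correlated from −0.217 to 0.352, so the numbers were not taken to pair the mice. A replicate block left 2 factors higher in ID8-FSHR against uninjected, since Tox had 0.84 (edgeR adjusted p = 0.0539), and gave 1 higher and 5 lower in ID8 against uninjected and 2 higher between the tumour groups. Over all genes, 1021 were higher and 941 lower in ID8-FSHR against ID8, beside 1540 and 1591 by DESeq2, 771 and 645 with no filter, 707 and 632 with only those groups, and 555 to 1731 and 406 to 1405 with each library left out (lowest without ID8 replicate 4, highest without ID8-FSHR replicate 1). Foxp3 and Tox rest on 28 to 396 reads a library.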

Other observations

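Lists of other lavage cells were called as follows, beside 32.7% of all tested genes higher and 31.4% lower in ID8 against uninjected. In ID8-FSHR against uninjected those shares were 33.9% and 30.6%. Of 9 dendritic cell markers, 1 was higher and 5 lower in ID8 against uninjected and 1 higher and 3 lower in ID8-FSHR (5 lower without ID8-FSHR replicate 2). Of 8 mast cell markers, 1 was higher and 4 lower in ID8 (2 lower without ID8 replicate 1 or uninjected replicate 2, 6 with a replicate block) and 1 higher and 5 lower in ID8-FSHR, Kit being the higher gene each time. Of 8 neutrophil markers, Csf3r was lower in both. Retnlg was called higher in ID8-FSHR, where the count of 1 became 2 without uninjected replicate 2 and 0 without ID8-FSHR replicate 2 or uninjected replicate 1, 3 or 4. In ID8, 0 neutrophil markers were higher by edgeR, with 1 at an unadjusted p under 0.05, by DESeq2, by limma-voom and without uninjected replicate 2. Of 9 B-1 cell markers, 9 were lower in ID8 and 8 in ID8-FSHR.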
